A study of Homo sapiens with 8 samples.

Results

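The genes that place, switch on and drive DNA replication forks were followed in 2 human lymphoma cell lines, KMH2 from Hodgkin lymphoma and Ramos from Burkitt lymphoma. The set is a list of 50 genes taken by name, and each gene was read on 1 probe set that the platform's gene table pairs with its symbol alone, the one with the highest mean over the 8 arrays. Of the 50 genes, 49 could be read in this way, out of 17958 genes with such a probe set. The remaining gene, PCNA, the sliding clamp of the fork, shares its probe set with another symbol and was left out. Total RNA had been hybridised to Affymetrix HuGene arrays in 3 groups: 3 arrays of untreated KMH2 cells, 3 arrays of KMH2 cells kept with glucosamine, an amino sugar, for 24 h, and 2 arrays of Ramos cells. Both lines grew in RPMI medium with serum, the labels give neither the glucosamine dose nor any genetic change, and each line is a single model of its lymphoma. Sample titles call both Ramos arrays control, whereas the series' design text puts 1 of the pair after glucosamine, so no treatment was assigned to either and each array is also given by itself. Each value is a log2 signal, each difference is a difference of log2 signals, and a difference of 1 is a 2-fold change.

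Replication starts from origins bound by the origin recognition complex (ORC1 to ORC6), onto which CDC6 and CDT1 load the ring-shaped MCM2 to MCM7 helicase during G1 phase. At the start of S phase the kinase CDC7 with its partner DBF4, together with other kinases and factors, allows CDC45 and the GINS proteins to join the ring and switch it on. DNA polymerase alpha and primase then lay down primers, polymerases epsilon and delta copy the strands, and clamp loaders, single-strand binding proteins, nucleases, ligase and histone chaperones serve the moving fork. Many of these genes are textbook targets of E2F transcription factors, which act at the passage from G1 into S phase. Most of the products serve any cell that copies its DNA, lymphoma cells included.

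Promoter sequences were examined because the genes moved together, as described further on. RefSeq's promoter table (GRCh38.p14, 250 bases before to 50 after each listed start) held 42 of the 49 genes. The E2F-like motif was searched as TTTCCCGC or TTTGGCGC on both strands, and 18 of the 42 genes (42.9%, exact binomial 95% interval 27.7% to 59.0%, counting error only) had at least 1 match, against 3.80% of 13864 genes of the array's gene table and 2.75% of all 27305 genes of the promoter table. The NF-Y-like motif CCAAT was present in 24 of the 42 genes (57.1%, exact 95% interval 41.0% to 72.3%). The share of the array's genes, 42.4%, lies within that interval. The CHR-like motifs TTTGAA or TTCGAA were present in 2 of the 42 (4.76%, interval 0.582% to 16.2%), against 17.5%. No match of one class overlapped a match of another class in the windows of these genes. Among the 37 of the 42 genes that fell after glucosamine, 16 had an E2F-like match, and the other matches were in CLSPN and CDT1, which did not pass the test. The remaining genes of the promoter table that did not fall, ORC4, DBF4 and RFC1, had no match. Whether matches differ between genes that fell and the rest was not tested. Stretches of 100 bases that lie wholly before the start site are shown for 5 genes that fell and carry the motif (MCM6, GINS2, TIPIN, POLA1 and POLE), for CDT1, for ORC4, which rose, and for PRIM1, which had the largest fall. Capitals mark E2F-like matches on either strand, and each line runs 5′ to 3′ on the strand of the gene.
MCM6: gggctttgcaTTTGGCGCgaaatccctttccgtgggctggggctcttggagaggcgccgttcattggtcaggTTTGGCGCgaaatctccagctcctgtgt
GINS2: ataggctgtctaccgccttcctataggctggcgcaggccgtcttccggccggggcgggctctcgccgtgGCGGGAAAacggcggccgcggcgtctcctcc
TIPIN: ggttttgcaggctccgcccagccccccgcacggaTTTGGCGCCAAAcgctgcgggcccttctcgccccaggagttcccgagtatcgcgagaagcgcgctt
POLA1: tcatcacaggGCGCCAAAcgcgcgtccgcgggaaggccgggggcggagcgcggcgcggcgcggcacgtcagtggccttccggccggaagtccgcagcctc
POLE: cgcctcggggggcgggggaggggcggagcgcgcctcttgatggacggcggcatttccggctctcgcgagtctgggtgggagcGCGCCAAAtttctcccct
CDT1: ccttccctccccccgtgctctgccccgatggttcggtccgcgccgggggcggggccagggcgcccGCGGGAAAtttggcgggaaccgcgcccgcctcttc
ORC4: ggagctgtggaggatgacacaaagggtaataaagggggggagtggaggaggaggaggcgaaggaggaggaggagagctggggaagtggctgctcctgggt
PRIM1: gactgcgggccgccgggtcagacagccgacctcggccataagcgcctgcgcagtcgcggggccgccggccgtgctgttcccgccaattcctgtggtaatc
On GRCh38.p14 these are chr2:135876506-135876605 (minus strand) for MCM6, chr16:85688955-85689054 (minus) for GINS2, chr15:66356686-66356785 (minus) for TIPIN, chrX:24693771-24693870 (plus) for POLA1, chr12:132687343-132687442 (minus) for POLE, chr16:88803689-88803788 (plus) for CDT1, chr2:148021552-148021651 (minus) for ORC4 and chr12:56752324-56752423 (minus) for PRIM1. The stretch of MCM6 covers bases 162 to 63 before the start and that of POLA1 bases 147 to 48, and the others cover bases 100 to 1. MCM6 held 2 separate matches, and TIPIN held 2 matches on opposite strands that share bases. TIPIN and ORC4 have 2 listed starts each, of which 1 is shown. In the windows of ORC4 and PRIM1 these exact letters do not occur, and other forms of the E2F motif were not searched in any gene. A match is a string of letters and was not read as a bound site.

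All 8 arrays had medians between 5.62 and 5.68 on the log2 scale, and no pair of arrays had the same value in more than 9 of the 33297 probe sets. The labelled cell types were checked on marker genes. TNFRSF8, the CD30 antigen of Hodgkin cells, averaged 8.74 in KMH2 control and 5.86 in Ramos, and the B-cell gene MS4A1 averaged 3.70 and 10.94. Group means of the B-cell genes MS4A1, CD79A, CD79B and CD22 were at most 5.75 in KMH2 control and at least 10.19 in Ramos. Means of the remaining B-cell markers in KMH2 control and Ramos were 7.46 and 10.41 (PAX5), 4.80 and 9.96 (POU2AF1), 8.03 and 8.99 (SPIB) and 6.63 and 7.95 (BLK). After glucosamine 6 of 7 Hodgkin tumour cell markers fell (log2 of their mean signal 9.84 to 9.95 in control, 9.49 to 9.59 treated), as did 1 of 8 B-cell markers (6.40 to 6.59 and 6.40 to 6.44) and 2 of 5 germinal centre markers (6.70 to 6.75 and 6.33 to 6.44), beside 13.9% of all probe sets. Of 7 T and NK cell markers 0 passed the glucosamine test by limma, yet their level on the same scale ran from 6.47 to 6.62 in control and from 6.16 to 6.44 after glucosamine, carried by CD3D and CD3G, while CD3E, CD2 and KLRD1 were at 4.65 or below in control. The 6 myeloid markers ran from 6.15 to 6.33 and from 5.89 to 5.99, with CD14 the member that fell. Whether these markers have a part in the results below was not tested.

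The first comparison set glucosamine-treated KMH2 cells against untreated ones. Replication genes fell almost throughout: 43 of the 49 were lower after 24 h of glucosamine, 1 was higher (ORC4) and 5 did not pass the test (CDT1, DBF4, CLSPN, RFC1 and RPA2). Among all 19181 probe sets tested, 13.9% were lower and 11.9% higher by the same rule, limma with an adjusted p under 0.05, 25.8% in all. The median difference over the 49 genes was -0.46, beside 0.01 over all probe sets, and 5.27% of all probe sets lay below that median. Most single falls were under 2-fold, 19 of the 43 reached 0.5 on the log2 scale and 1 reached 1 (PRIM1, as did 0.438% of all probe sets). Over all probe sets, called or not, the 0.04 quantile of the difference was -0.52 and the 0.045 quantile -0.49. In 46 of the 49 genes every glucosamine array lay below every control array, a pattern seen in 20.6% of all probe sets, and in ORC4 every one lay above (20.3%). The difference between arrays of the same replicate number was negative in all 3 pairs for 46 genes, beside 27.1% of probe sets. Since whole cultures were measured, fewer cells expressing a gene and less RNA of it per cell cannot be told apart. In a fit in which the Ramos arrays also set the error, 12 of the 49 were lower, beside 6.15% of all probe sets. In that fit the estimate of spread included the gap between the Ramos arrays, whose median SD over these genes was 0.52, against 0.06 in KMH2 control and 0.09 in KMH2 glucosamine.

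**Figure D1:**
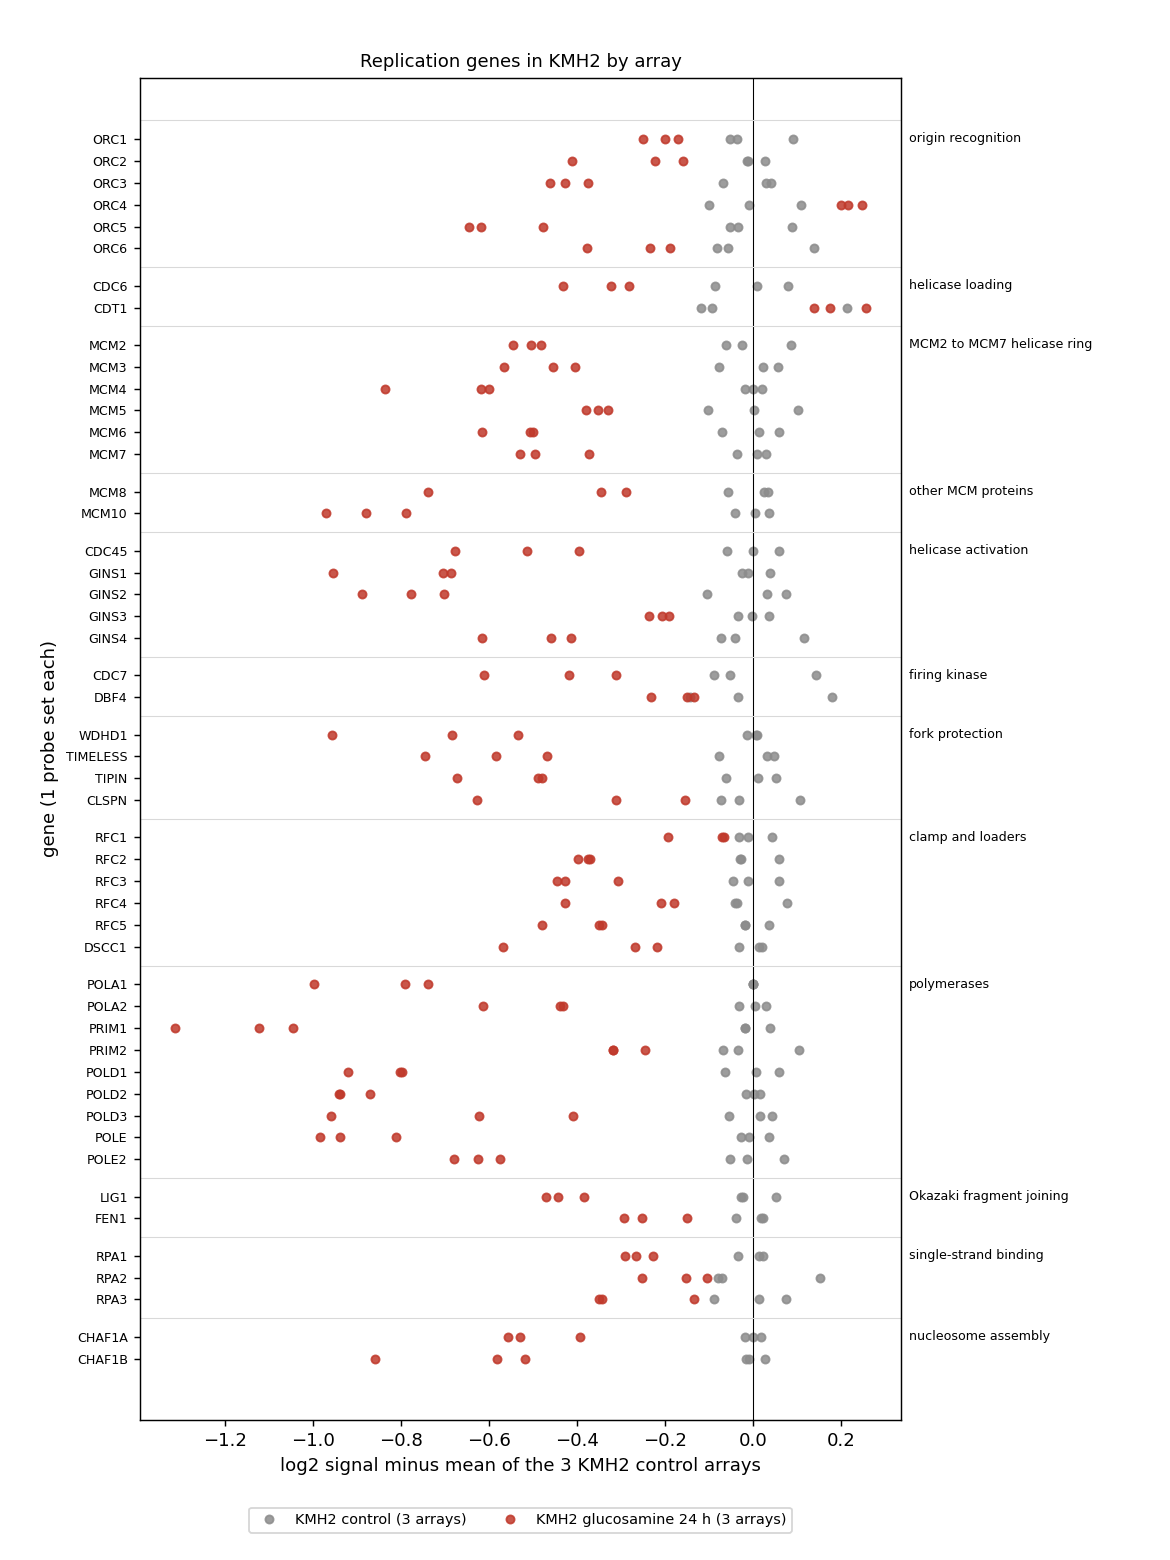
Log2 signal of 49 replication genes on each KMH2 array, minus the mean of the 3 control arrays (horizontal axis), with genes grouped by role (vertical axis), grey points for control and red points for 24 h of glucosamine. Red points lie left of all grey points in 46 genes and right of them in ORC4, and PRIM1 shows the largest shift.

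Origin recognition genes moved in both directions, with 5 that fell and 1 that rose. ORC5, a core subunit, read 8.51, 8.49 and 8.64 in the control arrays and 8.07, 7.93 and 7.90 after glucosamine, a fall of 0.58 ± 0.07 (SE, adjusted p = 0.000594). ORC3, another core subunit, read 8.34, 8.44 and 8.45 and then 8.03, 7.98 and 7.95, a fall of 0.42 ± 0.06 (adjusted p = 0.00112). In both genes all treated arrays lay below all controls. ORC4, the subunit that went the other way, read 8.13, 8.04 and 8.25 in control and 8.38, 8.35 and 8.34 after glucosamine, a rise of 0.22 ± 0.06 (adjusted p = 0.0372), and its groups did not overlap either. Smaller falls were measured in ORC1 (-0.21), the subunit that cells replace in each cycle, in ORC2 (-0.26) and in ORC6 (-0.27). These small differences kept their sign when 1 array was left out, but their calls were often lost. Leaving out any 1 of the 6 arrays ended the call of ORC1 (adjusted p from 0.055 to 0.102). The rise of ORC4 was not called without control replicate 1 (0.0936) or 2 (0.131) or without glucosamine replicate 1 (0.0672), 2 (0.0844) or 3 (0.0851). The fall of ORC2 was not called without control replicate 1 (0.0652), 2 (0.0771) or 3 (0.0919) or glucosamine replicate 2 (0.0511), and that of ORC6 without control replicate 1 (0.0607), 2 (0.056) or 3 (0.12) or glucosamine replicate 1 (0.0811) or 3 (0.0825).

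Of the loaders, CDC6 fell and CDT1 did not pass the test. CDC6, the ATPase that opens the way for the ring, read 8.84, 8.68 and 8.78 in control and 8.44, 8.33 and 8.48 after glucosamine, a fall of 0.35 ± 0.07 (SE, adjusted p = 0.00586). CDT1, its partner in loading, read 8.34, 8.01 and 8.04 in control and 8.30, 8.27 and 8.39 after glucosamine. Control replicate 1 of CDT1 lay among the treated arrays, so the groups overlapped, and the difference of 0.19 (95% confidence interval -0.02 to 0.40) did not pass (adjusted p = 0.183). Without that array the difference was 0.30 and passed (adjusted p = 0.0168), and it passed too with array weights (0.0312) and without both replicate 1 arrays (0.0109), with a range over all 15 alternatives of 0.0109 to 0.45. The inhibitor of CDT1, geminin (GMNN), which is no member of the list, fell by 0.75 ± 0.06 (adjusted p = 0.000122).

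Every subunit of the MCM2 to MCM7 helicase fell, by 0.35 to 0.68. MCM4 read 9.59, 9.61 and 9.57 in control and 8.75, 8.99 and 8.97 after glucosamine, a fall of 0.68 ± 0.07 (SE, adjusted p = 0.00037), a 1.61-fold lower signal. MCM6 read 9.07, 8.94 and 9.03 and then 8.40, 8.51 and 8.51, a fall of 0.54 ± 0.06 (adjusted p = 0.000508). The other subunits differed by -0.51 (MCM2), -0.48 (MCM3), -0.35 (MCM5) and -0.47 (MCM7). In all 6 the treated arrays lay below the controls, and none of the 6 lost its call when any 1 array was left out. MCM10, which helps to start unwinding, fell further than any ring subunit, from 9.30, 9.22 and 9.26 to 8.29, 8.38 and 8.47, by 0.88 ± 0.06 (adjusted p = 7.77e-05). MCM8, a helicase known for recombination repair, read 9.60, 9.59 and 9.51 in control and 8.83, 9.28 and 9.22 after glucosamine. Its fall of 0.46 ± 0.11 (adjusted p = 0.018) was not called without control replicate 1 (0.0564) or 2 (0.0646), and glucosamine replicate 1 lay well under the other treated arrays.

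The factors that switch the helicase on fell as well, all 5 of them. GINS2 read 10.44, 10.39 and 10.26 in control and 9.47, 9.66 and 9.58 after glucosamine, a fall of 0.79 ± 0.07 (SE, adjusted p = 0.000205). GINS1 read 9.52, 9.54 and 9.59 and then 8.59, 8.85 and 8.86, a fall of 0.78 ± 0.08 (adjusted p = 0.000314). Subunits of the same 4-part GINS complex differed in size of change, since GINS4 was at -0.50 and GINS3 at -0.21 with separate 95% intervals for GINS3 (-0.33 to -0.10) and GINS2 (-0.95 to -0.62). The call of GINS3 was lost without control replicate 1 (0.0534) or glucosamine replicate 3 (0.0622). CDC45, which joins GINS and the ring, was at -0.53. Of the firing kinase, the catalytic subunit CDC7 read 7.64, 7.68 and 7.88 in control and 7.12, 7.42 and 7.31 after glucosamine, a fall of 0.45 ± 0.09 (adjusted p = 0.00875). Its activating partner DBF4 read 5.94, 5.83 and 6.15 and then 5.82, 5.84 and 5.74, with overlapping groups, a difference of -0.17 (95% interval -0.37 to 0.02) and adjusted p = 0.183.

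Among the proteins that hold the fork together, WDHD1 (-0.73), TIMELESS and TIPIN fell. TIPIN, which pairs with TIMELESS, read 8.46, 8.38 and 8.50 in control and 7.96, 7.97 and 7.77 after glucosamine, a fall of 0.55 ± 0.07 (SE, adjusted p = 0.000849). TIMELESS read 8.77, 8.75 and 8.64 and then 7.97, 8.25 and 8.13, a fall of 0.60 ± 0.08 (adjusted p = 0.00105). For both partners the groups were apart. CLSPN, the checkpoint mediator claspin, read 7.86, 7.90 and 8.04 in control and 7.31, 7.78 and 7.62 after glucosamine, again without overlap but with a wide spread among treated arrays. Its difference of -0.37 missed the threshold (adjusted p = 0.0505) but passed it once a replicate block paired the arrays (adjusted p = 0.0138), without glucosamine replicate 2 (0.0201) and in 5 other alternatives of 15, with a range of 0.0138 to 0.466. A second probe set of CLSPN was at -0.29 (adjusted p = 0.123).

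Clamp loader genes fell by smaller amounts. RFC2 read 10.10, 10.01 and 10.01 in control and 9.64, 9.66 and 9.67 after glucosamine, a fall of 0.38 ± 0.05 (SE, adjusted p = 0.0012). RFC5 read 9.62, 9.57 and 9.57 and then 9.11, 9.24 and 9.24, a fall of 0.39 ± 0.06 (adjusted p = 0.00177). Treated and control arrays were apart in each. RFC3 was at -0.39 and RFC4 at -0.27, and the large subunit RFC1 was at -0.11 (95% interval -0.24 to 0.02, adjusted p = 0.216). A second, weaker probe set of RFC1 was at 0.22 (adjusted p = 0.141), so the sign of RFC1 turned when its probe sets were averaged (0.06). DSCC1, a subunit of the loader for sister chromatid cohesion, was at -0.35 (adjusted p = 0.0225). The call of RFC4 was lost without control replicate 1 (0.0611), 2 (0.0755) or 3 (0.117), and that of DSCC1 without the same arrays (0.0651, 0.0601 and 0.0747).

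The polymerase genes held the 3 largest single falls (PRIM1, POLD2 and POLE), and all 9 passed. POLD2, a subunit of polymerase delta, read 9.61, 9.63 and 9.64 in control and 8.76, 8.69 and 8.69 after glucosamine, a fall of 0.92 ± 0.05 (SE, adjusted p = 2.74e-05). PRIM1, the catalytic subunit of primase, read 9.57, 9.63 and 9.57 and then 8.28, 8.54 and 8.47, a fall of 1.16 ± 0.07 (adjusted p = 5.55e-05) or 2.24-fold, the largest of the 49. Replicates of both genes lay close together in control and none came near the treated arrays. Its partner subunit PRIM2 was at -0.29, with 95% intervals of -1.33 to -0.99 for PRIM1 and -0.44 to -0.15 for PRIM2. PRIM2 has a near-identical partial copy in the genome, so its signal is uncertain. The catalytic subunits of the 3 replicative polymerases were close to each other in size of fall, at -0.84 (POLA1, polymerase alpha), -0.84 (POLD1, delta) and -0.91 (POLE, epsilon). Accessory subunits were at -0.49 (POLA2), -0.66 (POLD3) and -0.63 (POLE2), and POLD2, also accessory, at -0.92. The median over the 9 genes was -0.84, the lowest of the roles with at least 3 members, while the clamp and loaders stood at -0.37 and origin recognition at -0.27. No call among the 9 was lost when 1 array was left out.

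Genes that finish and package the new strands fell too. LIG1, the ligase that joins Okazaki fragments, read 8.10, 8.17 and 8.09 in control and 7.65, 7.74 and 7.68 after glucosamine, a fall of 0.43 ± 0.05 (SE, adjusted p = 0.000781). FEN1, the flap nuclease that trims them, read 9.99, 9.99 and 9.93 and then 9.68, 9.82 and 9.72, a fall of 0.23 ± 0.06 (adjusted p = 0.0186) that was not called without control replicate 1 (0.0589) or 2 (0.0713) or glucosamine replicate 3 (0.0679). Both kept treated arrays below controls. The histone chaperone CHAF1A, large subunit of chromatin assembly factor 1, read 8.74, 8.73 and 8.71 in control and 8.20, 8.33 and 8.17 after glucosamine, a fall of 0.49 ± 0.06 (adjusted p = 0.000682). CHAF1B, of the same complex, read 9.21, 9.18 and 9.17 and then 8.33, 8.67 and 8.60, a fall of 0.65 ± 0.09 (adjusted p = 0.00117).

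The single-strand binding trimer, which also serves repair, changed by under 0.3 on the log2 scale. RPA1, its large subunit, read 8.16, 8.10 and 8.15 in control and 7.87, 7.91 and 7.85 after glucosamine, a fall of 0.26 ± 0.05 (SE, adjusted p = 0.00601). RPA3 read 6.66, 6.60 and 6.50 and then 6.25, 6.24 and 6.45, a fall of 0.28 ± 0.08 (adjusted p = 0.0301). Glucosamine replicate 3 of RPA3 came close to the lowest control, and the call was lost without control replicate 1 (0.0957) or 2 (0.0945) or glucosamine replicate 1 (0.0632) or 2 (0.0944). RPA2 was at -0.17 (95% interval -0.35 to 0.01) and did not pass (adjusted p = 0.155), although its treated arrays lay just below its controls.

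**Figure D2:**
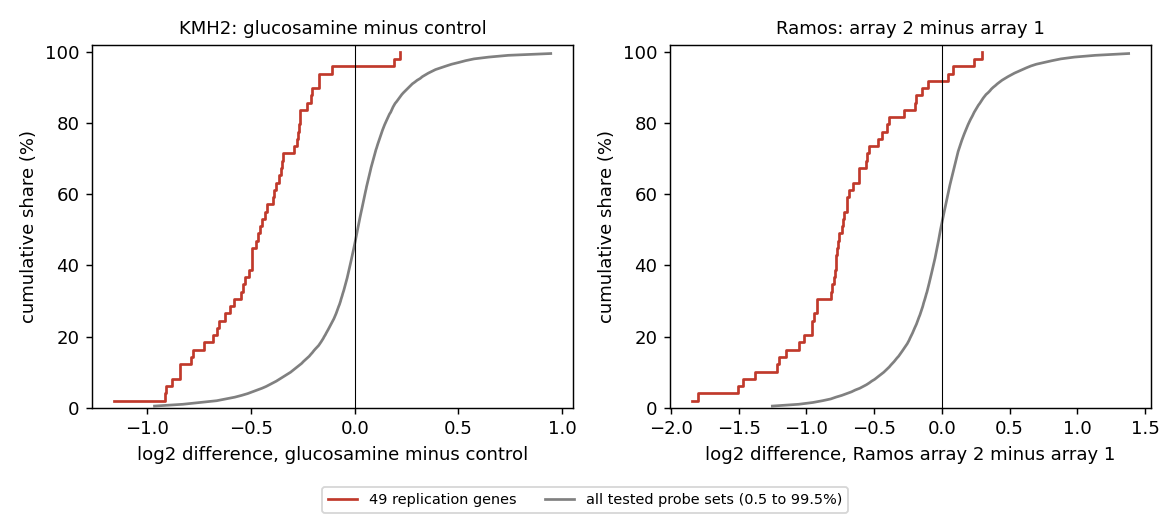
Cumulative share (vertical axis, percent) of the 49 replication genes (red) and of all tested probe sets (grey) by log2 difference (horizontal axis), for glucosamine minus control in KMH2 on the left and for Ramos array 2 minus Ramos array 1 on the right. The red curves lie to the left of the grey ones, with medians of -0.46 against 0.01 and of -0.74 against -0.01.

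Other replication genes, a list of 41 outside the set of which 38 could be read, gave 20 lower, 2 higher and 16 not past the test, and a median of -0.24, beside 13.9% lower and 11.9% higher among all probe sets. Those with the smallest p were UHRF1, which guides maintenance methylation (-0.79 ± 0.06, SE, adjusted p = 9.13e-05), the cohesion loader subunit CHTF8 (-0.96), geminin, PCLAF, a partner of the clamp (-0.62), and POLE4. POLE4, a small histone-fold subunit of polymerase epsilon, went up, from 8.60, 8.57 and 8.64 to 9.23, 9.17 and 9.26, by 0.61 ± 0.05 (adjusted p = 0.000154). HUS1, of the checkpoint clamp, rose by 0.19 (adjusted p = 0.0402). Origin firing factors fell in 4 of 5 cases, and the exception TOPBP1 was at -0.00. Checkpoint genes fell in 2 of 6 cases, and the topoisomerase gene TOP2A, abundant in dividing cells and named here after its value was seen, was at -0.02 (95% interval -0.14 to 0.10).

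The cell-line comparison set Ramos against untreated KMH2 and shared its control arrays with the glucosamine comparison. Of the 49 genes 18 were lower in Ramos, 7 were higher and 24 did not pass, beside 21.2% lower and 22.7% higher, 43.8% together, among all probe sets tested by limma. The share higher among these genes (14.3%) lay under the background. The share lower (36.7%) lay above it with all arrays but near it, at 10 of 49 (20.4%), without control replicate 1 (background 19.0%), 2 (18.4%) or 3 (18.6%) or with only Ramos and control arrays (18.8%). Both Ramos arrays lay below all 3 control arrays in 20 genes (26.3% of all probe sets) and above them in 9 (37.8%). Against all 6 KMH2 arrays they lay below in 5 (21.2%) and above in 9 (27.1%). The 5 largest negative differences were in a histone chaperone, a nuclease, a pair of clamp loader subunits and a polymerase. CHAF1B read 9.21, 9.18 and 9.17 in KMH2 control and 7.92 and 7.20 in Ramos, a difference of -1.62 ± 0.19 (SE, adjusted p = 0.000195). FEN1 read 9.99, 9.99 and 9.93 and 8.78 and 8.00, a difference of -1.58 ± 0.19 (adjusted p = 0.00021). In both genes the Ramos arrays lay below all 6 KMH2 arrays. DSCC1 read 9.06, 9.01 and 9.05 in KMH2 control and 7.98 and 7.19 in Ramos (-1.46 ± 0.21, adjusted p = 0.00055). RFC5 read 9.62, 9.57 and 9.57 and 8.72 and 7.57 (-1.44 ± 0.27, adjusted p = 0.00271). POLA1 read 9.72, 9.72 and 9.72 and 9.05 and 7.54 (-1.42 ± 0.35, adjusted p = 0.0112). For DSCC1 and RFC5 the Ramos arrays were again under all KMH2 arrays, whereas in POLA1 the first Ramos array lay above the glucosamine arrays and the second far below them.

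Of the 7 genes higher in Ramos, ORC5 and ORC6 belong to origin recognition and RPA1 and RPA3 to single-strand binding, and MCM6, RFC1 and POLD2 make up the rest. ORC6, the smallest origin subunit, read 6.56, 6.54 and 6.76 in KMH2 control and 7.80 and 7.60 in Ramos, a difference of 1.08 ± 0.10 (SE, adjusted p = 4.6e-05). RFC1 read 9.21, 9.14 and 9.16 and 9.86 and 10.10 (0.81 ± 0.09, adjusted p = 0.000103), but its second probe set was at -0.18 (adjusted p = 0.587) and the mean of both did not pass (0.32, adjusted p = 0.141). Ramos arrays exceeded all 6 KMH2 arrays in each. RPA1 read 8.16, 8.10 and 8.15 and 9.01 and 8.73 (0.74 ± 0.09, adjusted p = 0.00019). ORC5 read 8.51, 8.49 and 8.64 and 9.44 and 9.04 (0.69 ± 0.12, adjusted p = 0.00184). POLD2 read 9.61, 9.63 and 9.64 and 10.52 and 9.98 (0.62 ± 0.14, adjusted p = 0.00591). These 3 were also above every KMH2 array. ORC4 was the origin subunit that was lower in Ramos (-0.71 ± 0.10, adjusted p = 0.000561). Members of one complex were thus called on opposite sides of KMH2. ORC5 and ORC6 were higher with ORC4 lower, and RFC1 was higher with RFC2, RFC4 and RFC5 lower. For RFC1 this held only on its brighter probe set, and RFC2 lost its call when any 1 control array was left out. Of the 43 genes that fell after glucosamine, 15 were lower in Ramos (34.9%, beside 41.3% of the 2671 probe sets that fell) and 6 were higher (14.0%, beside 19.4%). Both shares lie below the background, and both comparisons share the control arrays.

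**Figure D3:**
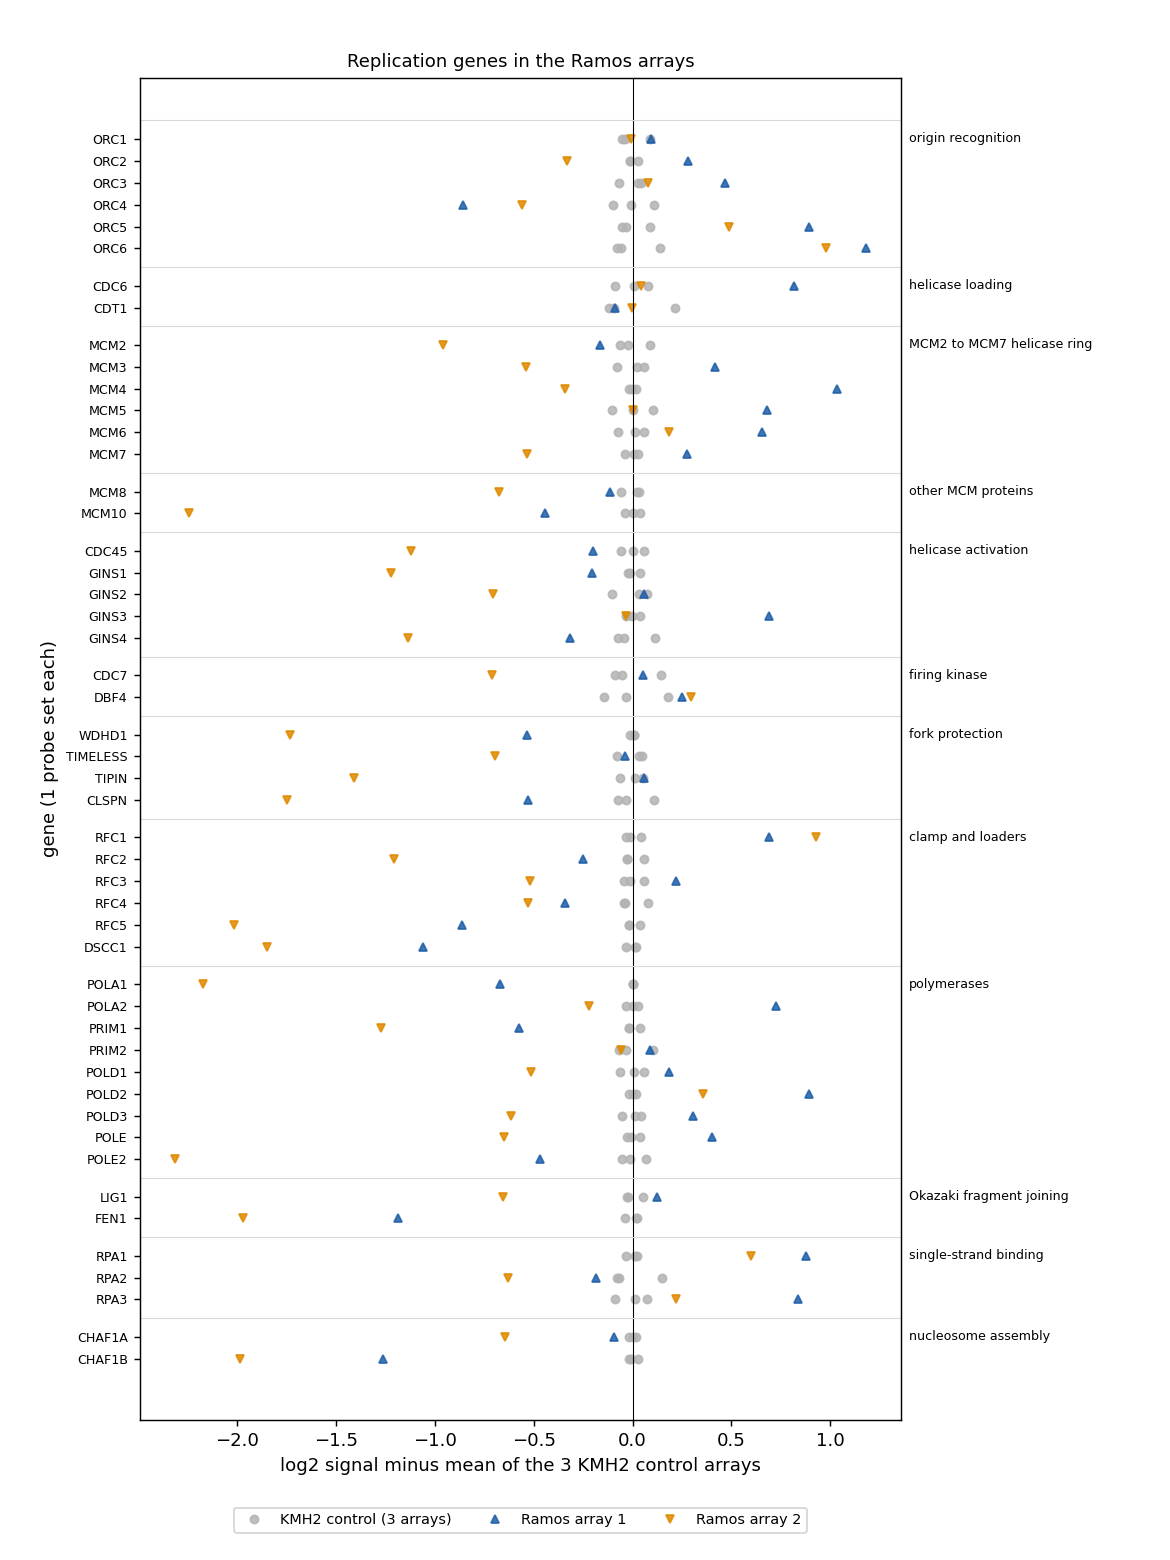
Log2 signal of the 49 replication genes on Ramos array 1 (blue) and Ramos array 2 (orange), minus the mean of the 3 KMH2 control arrays (horizontal axis), with the control arrays in grey and genes grouped by role (vertical axis). Ramos array 2 lies to the left of Ramos array 1 in 45 genes, beside 51.8% of all probe sets.

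The Ramos arrays stood apart from each other in these genes. Array 2 read lower than array 1 in 45 of 49, beside 51.8% of all probe sets, and lower by over 0.3 on the log2 scale in 40, beside 15.5%. The median gap was -0.74, with 3.51% of all probe sets below that value, and none of the 49 was higher in array 2 by over 0.3, beside 13.3%. There is 1 array on each side, so the gap has no replicate check and no test was made. The largest gaps were in POLE2, which read 8.52 and 6.68 (-1.84), in MCM10, which read 8.81 and 7.01 (-1.80), and in POLA1 (-1.50). TIPIN read 8.51 and 7.04 (-1.47) and MCM4 read 10.62 and 9.25 (-1.38). Array 2 was higher in 4 genes, ORC4 (0.30), RFC1 (0.24), CDT1 (0.08) and DBF4 (0.04).

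Many cell-line values depended on which Ramos array was used. With Ramos array 1 alone, assumed to vary like the KMH2 groups, 16 genes were higher (24.4% of all probe sets) and 14 lower (21.4%) than KMH2 control. With array 2 alone 5 were higher (24.8%) and 33 lower (23.9%). MCM3, MCM4, MCM7 and POLE passed the threshold in opposite directions with each Ramos array alone. MCM4 was at 1.03 with array 1 and at -0.34 with array 2, and MCM3 at 0.42 and -0.54. MCM7 was at 0.28 and -0.54, and POLE at 0.40 and -0.65. Lower past the threshold with either array alone were ORC4, MCM10, GINS4, WDHD1, CLSPN, RFC2, RFC4, RFC5, DSCC1, POLA1, PRIM1, POLE2, FEN1 and CHAF1B. Higher past the threshold with either were ORC5, ORC6, RFC1, POLD2 and RPA1. For these lists no share of all probe sets was counted. MCM2, CDC45, GINS1 and RPA2 lost their lower call without array 2 (adjusted p = 0.138, 0.182, 0.17 and 0.211), and MCM6 and RPA3 lost their higher call without array 1 (0.109 and 0.128). Leaving out 1 control array also ended calls. Without control replicate 1, 2 or 3, each time MCM2, MCM10, CDC45, GINS1, RFC2, POLE2 and RPA2 lost their lower call and MCM6 and RPA3 their higher call (adjusted p from 0.0517 to 0.116). GINS4 lost its lower call without replicate 1 or 2, and CLSPN without replicate 3 (0.0536).

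The gap between the Ramos arrays was set beside the KMH2 comparison, with which it shares no array. All 43 genes that were lower after glucosamine were also lower in Ramos array 2 than in array 1, 38 of them (88.4%) by over 0.3. Among the 2671 probe sets that fell after glucosamine, 78.1% were lower in Ramos array 2 and 50.5% by over 0.3. The genes that did not fall in KMH2 included the 4 that were higher in Ramos array 2. Across the 49 genes the 2 differences correlated with Pearson's r = 0.63 and Spearman's rho = 0.58, and across all 19181 probe sets with r = 0.45 and rho = 0.39. These are descriptions across genes, which are not independent replicates and share the probe sets' signal range. Sizes did not match gene by gene: PRIM1, first in KMH2 at -1.16, was at -0.70 in Ramos, and POLE2, first in Ramos at -1.84, was at -0.63 in KMH2. No treatment is assigned to either Ramos array from these values.

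**Figure D4:**
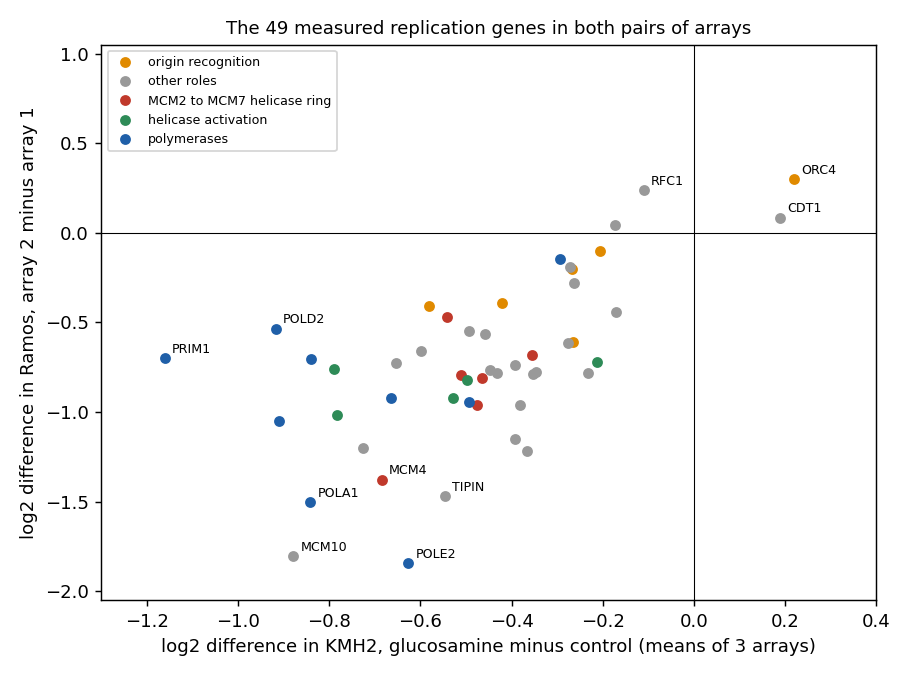
Each point is 1 of the 49 genes, with the log2 difference in KMH2 (glucosamine minus control, means of 3 arrays) on the horizontal axis and the log2 difference between the single Ramos arrays (array 2 minus array 1) on the vertical axis, coloured by role. All but 4 genes lie below 0 on the vertical axis, and ORC4 and CDT1 lie above 0 on both axes.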

How the data were processed

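The authors deposited log2 signals of 33297 probe sets from Affymetrix HuGene-1_1-st-v1 arrays, 8 in number. The log2 unit was read from the deposited values, and the summarization, background correction and normalization are not given in the sources used here. RNA came from RNeasy kits and the Ambion WT Expression Kit, per the labels' protocols. For arrays, their number limits the precision, and background of unknown size shrinks folds of dim genes. The platform annotation gives 1 symbol to 19181 probe sets, several to 2055 and none to 12061. Those with 1 symbol were tested by limma 3.58.1 (R 4.3.3) two-sidedly, using lmFit, then eBayes, with p-values adjusted over all of them by Benjamini and Hochberg and a threshold of 0.05, the glucosamine comparison on 6 KMH2 arrays and the cell-line comparison on all 8 in 3 groups. Scripts were tested on simulated data. Same-numbered KMH2 arrays were treated as possible pairs, since the design text describes replicas before and after treatment. Their deviations from the group means correlated (0.46, 0.23 and 0.23). Crosswise, control 2 with glucosamine 3 (0.25) and control 3 with glucosamine 2 (0.18) correlated about as much, so the values do not tell numbers 2 and 3 apart. The main glucosamine fit did not pair the arrays, and the paired fit is an alternative. The series' design text calls the KMH2 replicates biological, and for Ramos nothing says that the arrays came from separate cultures, so p-values there may rest on technical spread alone. Members, roles and gene lists were chosen with earlier results of these data known. Genes given array by array were, by rule, the 2 members per role with the smallest p, risers, the 5 highest and 5 lowest in Ramos against control and the 5 largest gaps between the Ramos arrays. Members that did not pass were named with values, and the choice to print CLSPN array by array was made after its values were seen. RNASEH2C, RTEL1 and ATRIP of the pathway list had no probe set of their own. The erythroid markers averaged 3.38 (HBB) and 3.96 (AHSP) in KMH2 control, and 0 of 5 fibroblast and epithelial markers and 0 of 2 erythroid markers passed in the limma glucosamine test.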

Additional observations from a re-analysis of the deposited data

How the results depend on the processing

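Of the glucosamine counts (43 lower, 1 higher), the lower count ran from 34 to 41 and the higher count from 0 to 1 when 1 array was left out. It was 12 lower and 0 higher with all 8 arrays sharing the spread, 37 and 0 with all probe sets tested, 43 and 2 with array weights, and 40 and 1 without both replicate 1 arrays. The share of all probe sets past the threshold, 25.8%, became 11.3% with 8 arrays, 15.4% with all probe sets tested, 34.4% with array weights, 31.0% without dim probe sets and 30.0% with the replicate block, and ran from 18.8% to 28.5% in the other alternatives. With a replicate block to pair the arrays 44 were lower, beside 15.8% of probe sets, and no call but that of CLSPN changed. Of the cell-line counts (7 higher, 18 lower), leaving out 1 array gave 5 to 16 higher and 10 to 33 lower, and using only Ramos and control arrays gave 10 lower (5 higher). With a replicate block, which cannot pair different cell lines, CDC45 (0.0971) and GINS1 (0.094) lost their calls. Signs turned for RFC1 after glucosamine with averaged probe sets (0.056) and, in Ramos, for ORC2 (0.0059) and PRIM2 (-0.00072) with the block. Leaving out 1 array turned the sign of these Ramos differences, none of them called with all arrays: ORC1 (-0.0101 to 0.093), ORC2 (-0.33 to 0.28), CDT1 (-0.11 to 0.0596), MCM3 (-0.54 to 0.42), MCM4 (-0.34 to 1.03), MCM5 (-0.00056 to 0.68), MCM7 (-0.54 to 0.28), GINS2 (-0.70 to 0.055), GINS3 (-0.033 to 0.69), CDC7 (-0.71 to 0.051), TIPIN (-1.41 to 0.059), RFC3 (-0.52 to 0.22), POLA2 (-0.22 to 0.73), PRIM2 (-0.059 to 0.087), POLD1 (-0.52 to 0.19), POLD3 (-0.62 to 0.30), POLE (-0.65 to 0.40) and LIG1 (-0.66 to 0.12). The median gap between the Ramos arrays was -0.70 after quantile normalization and -0.74 with averaged probe sets. The share of the 42 genes with an E2F-like match was 23.8% for TTTCCCGC alone, beside 2.76% of the array's genes. For TTTGGCGC alone it was 19.0%, beside 1.08%. Each form is only part of the search. Other causes were not tested.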

Other observations

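The fall was not even across the numbered KMH2 replicates. The median difference over the 49 genes between same-numbered arrays was -0.52 for replicate 1, -0.39 for replicate 2 and -0.44 for replicate 3, while over all tested probe sets it lay between 0.00 and 0.02. Replicate 1 held the largest of the 3 falls in 38 genes, beside 37.3% of all probe sets, and the lowest of the 3 treated values in 34, beside 36.9%. WDHD1 differed by -0.94, -0.54 and -0.69 in replicates 1, 2 and 3, and MCM8 by -0.77, -0.31 and -0.29. POLD2 was even across the pairs, at -0.85, -0.94 and -0.95. Without both replicate 1 arrays 40 of the 49 genes were lower.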
